A study of Mus musculus with 13 samples.

Results

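The regions described here are OCT4-bound regions at which no SMAD3 peak was called, in mouse embryonic fibroblasts (MEFs) on day 3 of reprogramming. The members were selected on the absence of an overlap of at least 1 bp with any of 8 deposited SMAD3 peak lists, which were the 3 replicate lists and the merged list with doxycycline (dox; Dox+) and the same lists without it (Dox-). Of the 2022 distinct regions in the merged OCT4 list, 949 met this rule (46.9%, exact 95% interval 44.7 to 49.1). The other 1073 regions were those at which some SMAD3 list had a peak, of which 1033 overlapped Dox+ lists alone and 40 overlapped a Dox- list. The SMAD3 peak calls therefore chose the members, and SMAD3 signal at them is given below as a description, with no test.

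The MEFs came from embryos of the TNG MKOS mouse line on a mixed genetic background, from embryos of both sexes, and carried a Nanog-GFP reporter, an rtTA transactivator under the CAG promoter, and tetO-MKOS-ires-mOrange, which expresses Oct4, Sox2, Klf4 and c-Myc on addition of dox. All cells had been infected with a retroviral vector for Smad3CA, a constitutively active Smad3, so there was no group without it. Chromatin was immunoprecipitated for OCT4 in Dox+ cells (n = 3) and for SMAD3 in Dox+ cells (n = 3) and Dox- cells (n = 3), with 2 inputs for each dox state and a dox dose of 1 µg/ml per the labels. OCT4 was not profiled in Dox- cells, expression was not measured in this series, so the fibroblast label could not be checked against marker genes, and the labels do not say whether replicates were separate cultures. Both factors were overexpressed, and levels of binding refer to such cells.

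OCT4 (encoded by Pou5f1) is a POU-domain transcription factor of pluripotent cells. It binds an octamer sequence alone, a composite site with SOX2 in which the POU and SOX sequences are adjacent, and palindromic sites on which POU domains pair, and it can bind sites in closed chromatin. SMAD3 carries TGF-β and activin signals to the nucleus, binds DNA weakly by itself at short half-sites, and in embryonic stem cells is found with OCT4 at many sites. OCT4 regions without a SMAD3 peak are the part of the OCT4 binding in these cells for which that pairing was not called.

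The sequences of the strongest members are shown because they differ in which POU site they hold. They are the reference sequence of GRCm38 (mm10), plus strand, 5′ to 3′, from 50 bp before to 50 bp after the OCT4 summit of the 6 members with the highest −log10 q-value among those found in at least 2 OCT4 replicate lists. Capitals mark matches on either strand to the octamer ATGCNAAT, to the composite (TTGT, any base, then ATGNNAA), to the SOX core AACAAAG or AACAATG, to the KLF site GGGCGTGG or GGGTGTGG, or to ATGCATA, here called the POU palindrome motif. This last motif is only a part of a palindromic site, and the search did not require a full palindrome.
chr10:98007896-98007996: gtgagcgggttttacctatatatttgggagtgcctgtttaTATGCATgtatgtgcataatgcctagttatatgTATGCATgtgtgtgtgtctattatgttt
chr4:91448076-91448176: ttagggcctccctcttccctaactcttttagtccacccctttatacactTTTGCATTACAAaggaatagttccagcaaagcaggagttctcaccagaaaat
chr7:92025544-92025644: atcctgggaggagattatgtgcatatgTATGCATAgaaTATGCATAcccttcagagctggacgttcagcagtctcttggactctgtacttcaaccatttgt
chr15:84997559-84997659: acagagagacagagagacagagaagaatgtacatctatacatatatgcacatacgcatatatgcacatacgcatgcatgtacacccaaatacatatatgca
chr6:96303389-96303489: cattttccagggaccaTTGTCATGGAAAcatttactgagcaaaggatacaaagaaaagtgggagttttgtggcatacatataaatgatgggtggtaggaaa
chr3:9546584-9546684: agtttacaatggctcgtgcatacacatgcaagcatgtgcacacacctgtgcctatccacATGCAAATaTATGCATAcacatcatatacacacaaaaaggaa
The regions on chromosomes 4 and 6 held the composite. The region on chromosome 3 held an octamer followed by overlapping matches to the POU palindrome motif on both strands. The regions on chromosomes 10 and 7 held the POU palindrome motif at 2 positions each and neither octamer nor composite. The region on chromosome 15 held none of the marked motifs in this stretch, and repeats made up 66.2% of its wider window of 100 bp on either side.

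These 6 regions lay 9080 to 137192 bp from the nearest transcript start, where the median over all members was 17878 bp. That on chromosome 10 (chr10:98007774-98008105) lay between genes, and had a fold enrichment over input of 13.3 in the merged list and of 12.5 and 16.8 in OCT4 replicates 1 and 2. The region on chromosome 4 (chr4:91447994-91448284) lay 47208 bp from Elavl2, the gene of a neuronal RNA-binding protein, with a fold of 15.2 and of 11.7, 17.1 and 9.23 in replicates 1, 2 and 3. The region on chromosome 7 (chr7:92025435-92025795) lay in an intron of Dlg2, the gene of a postsynaptic scaffold protein, with a fold of 11.7 and of 7.41, 13.3 and 9.61 in the replicates. The Elavl2 and Dlg2 regions were thus found in all 3 replicates. The region on chromosome 15 (chr15:84997470-84997792), between genes and 8918 bp from 5031439G07Rik, had the highest fold of all members, 15.7, with 9.44, 12.2 and 12.1 in the replicates. On chromosome 6, the region (chr6:96303307-96303563) lay in an intron of Fam19a1 with a fold of 10.7, and a further member in an intron of the same gene (chr6:96384512-96384753), which held an octamer, had a fold of 14.4. The strongest region of chromosome 3 (chr3:9546521-9546738) lay in an intron of Zfp704, a zinc-finger gene, with a fold of 12.1. The last of the 10 strongest members were in an intron of Stag1, which encodes a cohesin subunit (chr9:100693435-100693683, fold 13.3), between genes on chromosome 13 (chr13:99022712-99022954, fold 12.7), and in an intron of Nell1 (chr7:50596005-50596261, fold 13.2).

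SMAD3 signal was low but not missing at the members. It was taken from the deposited score, which is pooled ChIP coverage less pooled input coverage after both were scaled to 1x, and was averaged over the central 200 bp of a region. With dox its mean was 4.77 ± 3.06 (SD over 949 regions) at the members, with a median of 4.72 and a range of -3.60 to 15.1. It was above 0 at 94.9% of them, 99.8% of the other OCT4 regions and 97.5% of all 2022 regions. At the other OCT4 regions the mean was 11.1 ± 6.21 (SD over 1073 regions) and the median 10.1. Without dox the median was -0.13 at the members and 0.26 at the others. The Dox+ value exceeded the Dox- value at 91.8% of members, 98.8% of the others and 95.5% of all 2022 regions. From 1500 to 2000 bp away, the mean Dox+ signal at the members was -0.11. Replicates were combined in the deposited score, which therefore has no replicate error. The OCT4 peaks and this score were both taken against pooled inputs, and the part of the input in the SMAD3 signal was not tested.

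**Figure D1:**
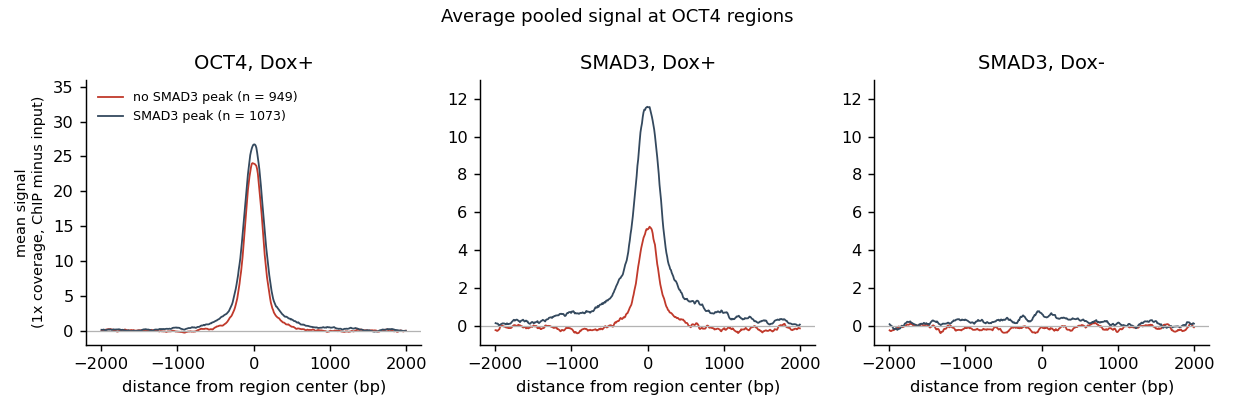
Mean pooled signal (1x coverage, ChIP minus input) against distance from the region center in bp, for OCT4 in Dox+ cells and SMAD3 in Dox+ and Dox- cells; red, 949 OCT4 regions without a SMAD3 peak, and dark, 1073 with one. The Dox+ SMAD3 profile of the members rises to 5.24 at the center against 11.6 for the others, while the Dox- profiles stay below 1.

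The mean profiles were narrower at the members than at the others. For SMAD3 the sets were divided by peak calls from the same libraries, so its widths are a description only. The mean Dox+ SMAD3 profile fell to the midpoint between its top and its level at 1500 to 2000 bp over a width of 290 bp at the members and 380 bp at the others, and the OCT4 profile over 270 and 300 bp. The depth behind these values was small. The most frequent positive value of a 10 bp bin more than 1000 bp from the center, 2.04 for OCT4, 1.67 for Dox+ SMAD3 and 2.2 for Dox- SMAD3, was read as what 1 fragment adds. On that reading the members had on average 10.7 OCT4 fragments over input and 2.85 Dox+ SMAD3 fragments per position, against 11.98 and 6.63 at the others. The value of a single region thus rested on few fragments.

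**Figure D2:**
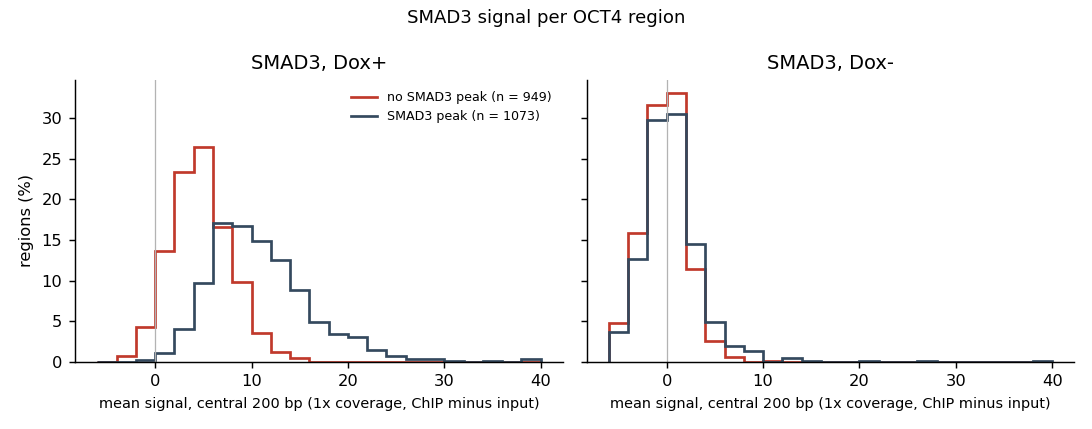
Share of regions (%) in steps of 2 units of SMAD3 signal over the central 200 bp (1x coverage, ChIP minus input), with dox (left) and without (right); red, regions without a SMAD3 peak, and dark, regions with one, values beyond the axis being drawn in the end bins. The Dox+ distributions overlap, with medians of 4.72 and 10.1, and the Dox- distributions lie around 0.

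The signal of members and others overlapped although the peak calls separated them. Of the members, 43.2% had a Dox+ SMAD3 signal above 5.23, the value that 90% of the other regions exceeded, but 42 (4.43%) lay above the median of the others. Conversely, 79 of the other regions (7.36%) lay below the median of the members. The 3 members with the highest Dox+ SMAD3 signal were in an intron of Tmem117 (chr15:94770963-94771159, 15.1), between genes on chromosome 11 (chr11:40977385-40977624, 14.8) and in an intron of Tle1, which encodes a Groucho-family corepressor (chr4:72171925-72172158, 14.4). Their Dox- signals were -1.91, -5.21 and 0.15. The 3 members with the lowest Dox+ signal, all between genes, were chr3:28842386-28842552 at -3.60, chr4:30191926-30192128 at -3.22 and chr2:110537467-110537666 at -2.44.

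The border of the rule ran through regions of like signal. The members nearest to a SMAD3 peak lay 9 bp away from one in an intron of Samsn1 (chr16:75891431-75891668), 15 bp away in an intron of Ccdc162 (chr10:41655645-41655820) and 15 bp away in an intron of Vcl, the vinculin gene (chr14:20964354-20964520). Their Dox+ SMAD3 signals were 3.00, 9.31 and 5.74. The regions just outside the rule were chr2:172408852-172409025 in an intron of Cass4, chr17:29786141-29786306 between genes and chr7:143391174-143391367 in an intron of Kcnq1, whose longest overlaps with a SMAD3 peak were 7, 13 and 16 bp and whose signals were 8.65, 5.13 and 0.45. Such cases were few: 14 members (1.48%) had a SMAD3 peak within 500 bp, 24.1% had one within 10000 bp, and the median distance was 34373 bp.

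Membership rested mostly on 1 library. The Dox+ SMAD3 lists of replicates 1, 2 and 3 held 420, 23981 and 10374 peaks, and 543 of the 1073 other regions were overlapped by the list of replicate 2 and by no other list. When this list and the merged lists were left out of the rule, 1801 of the 2022 regions (89.1%) had no SMAD3 peak. Leaving out any other of the 6 replicate lists gave 47.6 to 48.5%. Under the rule without replicate 2, the Dox+ SMAD3 signal of regions without a peak was 7.10 and their OCT4 signal differed from that of the rest by -1.31, while the differences in promoter-proximal, KLF, AP-1 and composite shares given below were -14.5, -5.38, -1.12 and -0.005 percentage points. The 2 merged lists alone left 75.02% without a peak.

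The share without a SMAD3 peak fell with OCT4 signal. Regions were divided into quintiles by the OCT4 signal over the central 200 bp. The share was 53.1% (exact 95% interval 48.1 to 58.03) in the lowest quintile, 53.5% and 52.7% in the next, 43.3% (38.4 to 48.3) in the fourth and 32.1% (27.6 to 36.9) in the highest. The first 3 quintiles did not differ beyond their intervals, and the highest lay below all others. Among the members, the median Dox+ SMAD3 signal was 3.901 in the lowest quintile and 5.67 in the highest, against 8.79 and 11.6 at the others in the same quintiles. The OCT4 signal itself was 21.9 ± 6.33 (SD over regions) at the members and 24.4 ± 8.54 at the others. The intervals cover counting error only, and regions are not replicates.

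**Figure D3:**
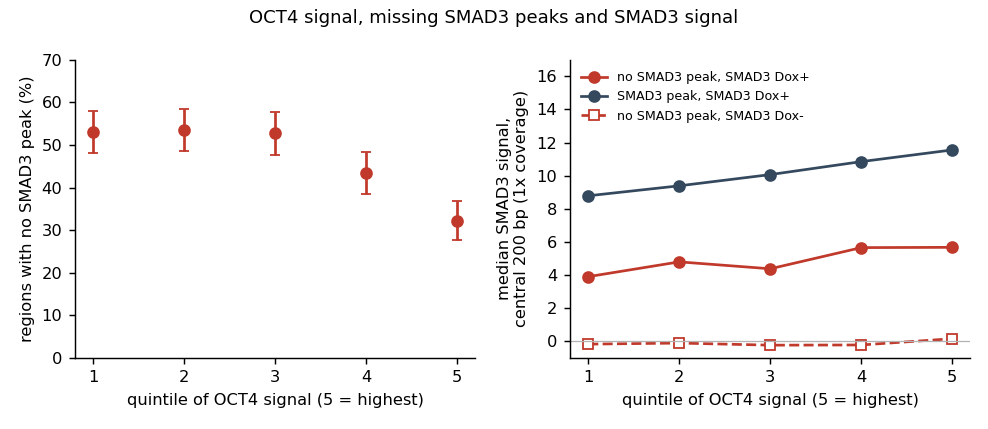
Left, percent of OCT4 regions without a SMAD3 peak in each quintile of OCT4 signal, with exact 95% intervals; right, median SMAD3 signal over the central 200 bp in the same quintiles. The share falls from 53.1% to 32.1%. The Dox+ SMAD3 medians differ between members and others in every quintile, but peak calls from the same libraries divided these sets. The Dox- median of the members stays near 0.

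OCT4 binding at the members was found again less often in single replicates. The list of OCT4 replicate 1 overlapped 40.6% of members and 53.5% of the other regions, that of replicate 2 overlapped 41.7% and 52.5%, and that of replicate 3, by far the shortest, overlapped 2.21% and 6.62%. The share was lower at the members in 3 of 3 replicates, by 9.36 percentage points on average (SD 4.43, n = 3; exact paired permutation p = 0.25, two-sided, the smallest that 3 pairs can give). The difference was larger than its spread between replicates, but the design cannot pass 0.05. It was -11.4 points among regions with an OCT4 signal above the median and -1.66 points among those at or below it, values whose own difference was not tested, and OCT4 signal moved with membership as given above. Of the members, 17.9% were in at least 2 OCT4 replicate lists, against 33.6% of the others and 26.2% of all 2022 regions. In no such list were 34.2% of the members, 25.1% of the others and 29.4% of all regions.

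**Figure D4:**
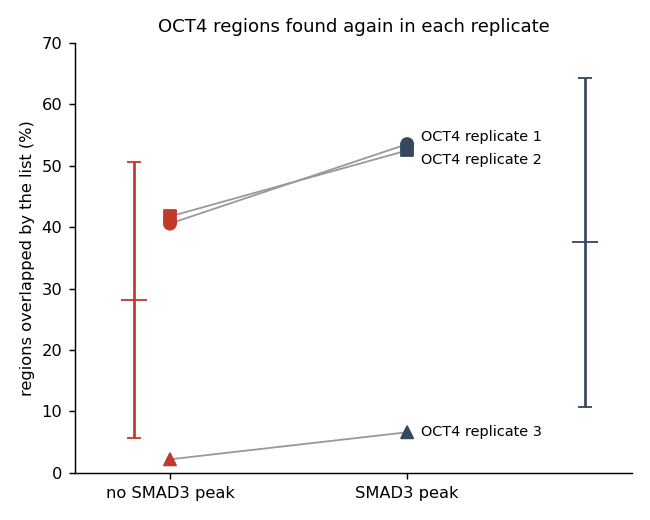
Percent of OCT4 regions overlapped by the peak list of each OCT4 replicate, for regions without (red) and with (dark) a SMAD3 peak; lines join the values of 1 replicate, and bars at the sides give mean and SD (n = 3). The value for regions without a SMAD3 peak lies lower in each replicate, and replicate 3 lies far below the other two.

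Where a replicate did have a peak, its height differed little between the sets. The median fold of the overlapping peaks was 7.06 at the members and 6.87 at the others in replicate 1, 6.95 at both in replicate 2, and 7.20 and 7.29 in replicate 3. On the log2 scale the mean difference was 0.01 (SD 0.03, n = 3; exact paired permutation p = 1). In the merged list the median fold was 6.13 at the members and 6.23 at the others, and the 90th percentile 8.62 and 9.52. The members were also narrower, with a mean width of 214.7 ± 50.7 bp (SD over regions) against 254.1 ± 77.7 bp, and the part of width in SMAD3 overlap was not tested. More than 1 summit was called at 1.16% of members and 4.57% of the others.

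The median OCT4 fold of the members rose with the number of OCT4 replicate lists that overlapped them. Their SMAD3 signal was limited by the peak calls that chose them, so its medians by class are a description only. The median fold was 5.51 for members in no replicate list, 6.07 in 1 list, 7.88 in 2 lists and 11.3 in all 3 lists, and the median Dox+ SMAD3 signal was 4.63, 4.53, 5.21 and 5.07. For the other regions in the same classes the SMAD3 medians were 10.0, 9.91, 10.2 and 13.8. The 8 members in all 3 lists included the Elavl2, Dlg2 and 5031439G07Rik regions and the octamer region in Fam19a1. The rest, named after their values were seen, were a region 92657 bp from Klf7, a KLF-family factor gene (chr1:64214940-64215211, fold 10.2), an exonic region of Arhgap27 (chr11:103348252-103348528, fold 8.83), an intronic region of Dpyd, a gene of pyrimidine breakdown (chr3:119112740-119112982, fold 6.77), and an intronic region of Rora, a nuclear receptor gene (chr9:69092881-69093120, fold 10.8). Their Dox+ SMAD3 signals were 3.61, 4.46, 2.13 and 5.68.

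Octamer and composite matches were more frequent at the members' summits than in their flanks, and over all regions the intervals of their differences from the other OCT4 regions included 0. Within 100 bp of the summit the octamer was found in 10.96% of members and 10.3% of the others, a difference of 0.61 percentage points (Newcombe 95% interval -2.07 to 3.34), against 2.95% of the members' flanking windows of the same length, 500 to 700 bp away. The composite was found in 7.38% of members and 5.41% of the others (difference 1.97, interval -0.16 to 4.17), and in 0.369% of the members' flanks. The composite interval lay above 0 in 5 of 18 alternatives: without the regions that had a Dox- SMAD3 peak (2.25, interval 0.11 to 4.44), above the median GC content (3.88, 0.42 to 7.70), at or below the median OCT4 signal (2.90, 0.05 to 5.75), for OCT4 regions of −log10 q 5 or more (2.54, 0.06 to 5.14) and with SMAD3 peaks within 500 bp counted (2.15, 0.02 to 4.36). Over all 2022 windows the shares were 10.6% for the octamer and 6.33% for the composite. Both motifs occurred together in 10 members. The composite was the motif nearest to the summit, at a median of 26 bp in the members that had it, and the SOX core was present in 24.97% of members, 23.7% of the others and 9.69% of the members' flanks. A match is a description of the sequence, not evidence of a bound site.

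The POU palindrome motif was more frequent at the members. This motif was added to the search after the sequences above had been read, so members shown there prompted it and the comparison was not planned. It was found within 100 bp of the summit in 17.1% of members (exact 95% interval 14.7 to 19.6), 10.7% of the other regions (8.93 to 12.7), 13.7% of all 2022 windows, and 3.32% of the members' flanks. The difference was 6.35 percentage points (Newcombe 95% interval 3.34 to 9.40), and it was 7.72 among regions with an OCT4 signal at or below the median, 6.16 above it, 4.73 in windows of lower GC content and 6.89 in windows of higher GC content. With the SMAD3 rule that left out Dox+ replicate 2 it was 9.28, and with SMAD3 peaks of −log10 q 2 or more it was 4.01 (0.56 to 7.05). Among OCT4 regions in at least 2 OCT4 lists it was 4.69, with an interval that included 0 (-1.92 to 12.1). It fell to 3.22 (0.69 to 5.82) for matches in bases that the reference does not mark as repeats, which were present in 10.96% of members and 7.74% of the others. Matches at more than 1 position that did not overlap were found in 2.74% of members and 1.03% of the others. Members with the motif had a median OCT4 fold of 6.25 and a Dox+ SMAD3 signal of 4.37, against 6.05 and 4.803 for members without it. The rule limits the SMAD3 signal of all members, so these SMAD3 values are a description only.

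**Figure D5:**
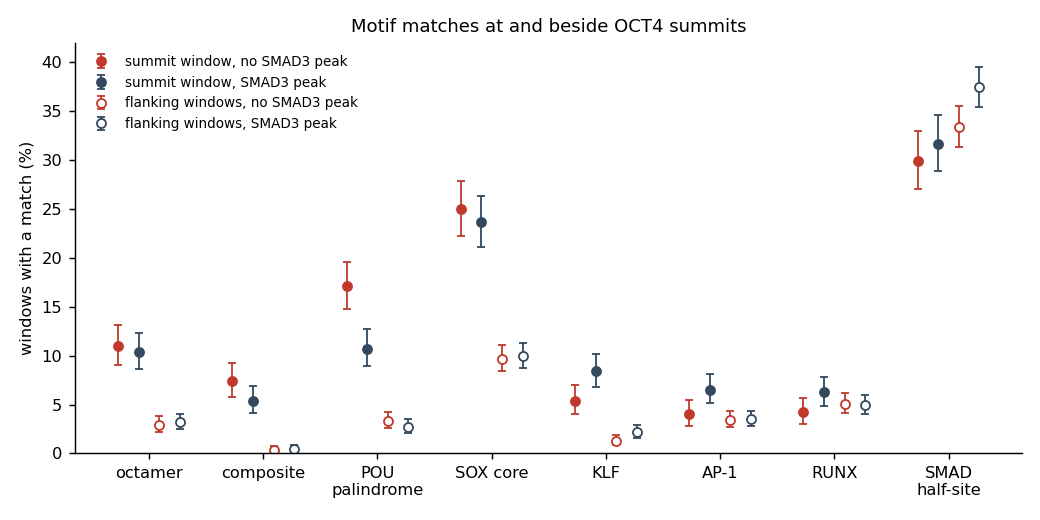
Percent of windows with a motif match, with exact 95% intervals, within 100 bp of the OCT4 summit (filled) and in windows 500 to 700 bp away (open); red, regions without a SMAD3 peak, and dark, with one. Octamer, composite, POU palindrome motif, SOX core and KLF matches exceed the flanks in both sets. The POU palindrome motif differs most between the sets (17.1% and 10.7%), but it was added after sequences of members had been read. In bases not marked as repeats its shares are 10.96% and 7.74%.

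KLF, AP-1 and RUNX motifs were less frequent at the members over all regions, and the KLF and AP-1 differences depended on which windows and regions were compared. The KLF site, bound by KLF4 of the cassette, was found in 5.37% of members and 8.39% of the others (difference -3.01, interval -5.22 to -0.79), with 1.26% in the members' flanks and 6.97% over all windows. The AP-1 site TGACTCA, bound by FOS and JUN dimers that are abundant in fibroblasts, was found in 4.00% of members, 6.52% of the others (difference -2.52, interval -4.48 to -0.56), 3.42% of the members' flanks and 5.34% of all windows. Members had a median GC content of 39.3% against 41.3%, and both differences moved with it. The KLF difference was -0.0044 points in windows at or below the median GC content and -5.03 above it, and the AP-1 difference -4.95 and 0.26. The KLF difference was -0.65 within 50 bp of the summit (interval -2.29 to 1.02). It was -0.0163 among OCT4 regions in at least 2 OCT4 lists (interval -3.57 to 4.63). Its interval included 0 in 5 of 18 alternatives. The AP-1 difference was -1.34 within 50 bp (interval -2.81 to 0.12) and -2.92 in at least 2 lists (interval -6.09 to 1.08). The RUNX site TGTGGTT was found in 4.21% of members and 6.24% of the others (difference -2.03, interval -3.98 to -0.07), and in 5.06% of the members' flanks. The TEAD site ACATTCC and the C/EBP site TTGCNNCAA were found in 3.16% and 1.05% of members and in 4.38% and 1.77% of the others, and the E-box CACGTG, bound by MYC, in 1.16% and 1.305%, with intervals of the difference that included 0.

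The interval of the difference in SMAD half-sites also included 0. The half-site CAGAC was found in 29.9% of members and 31.7% of the others (difference -1.76, interval -5.77 to 2.28), with 33.4% in the members' flanks and 30.9% over all windows, so the members' summits held it no more often than the sequence beside them. Among regions with an OCT4 signal at or below the median the difference was -7.14 (interval -12.8 to -1.51), and above it 4.43 (-1.41 to 10.3), values whose own difference was not tested. The interval excluded 0 in only 1 of 18 alternatives, the one at or below the median, and this split was chosen after seeing the data. The GC-rich SMAD sites GGCGC or GGCCG were found in 5.69% of members and 7.74% of the others (difference -2.05, interval -4.23 to 0.16), and the palindrome GTCTAGAC in 2 members and 0 of the 1073 others. Members with a CAGAC had a median Dox+ SMAD3 signal of 4.72 and members without it 4.71. All of them were chosen for having no SMAD3 peak, so these medians cannot show whether the half-site goes with SMAD3 signal. None of octamer, composite, SOX core and KLF site was found in 59.01% of members and 58.6% of the others.

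Nearly all members, like the other OCT4 regions, lay in introns or between genes. Of the members 49.9% had their center in an intron, 47.1% between genes, 2.11% in an exon and 0.843% in an untranslated region. Of the others 48.3% lay in an intron (difference 1.67, interval -2.69 to 6.02) and 47.1% between genes (difference 0.04, interval -4.31 to 4.39). The center lay within 1000 bp of a transcript start for 44 members (4.64%) and 79 of the others (7.36%), a difference of -2.73 percentage points (interval -4.80 to -0.64). Without the 40 regions that had a Dox- SMAD3 peak, of which 42.5% were promoter-proximal, the difference was -1.37 (interval -3.36 to 0.64), it was -0.29 among regions in at least 2 OCT4 lists, and within 5000 bp of a start the shares were 22.3% and 22.9%. Members were more isolated, with another OCT4 region within 10 kb for 4.32% of them against 9.88% of the others (difference -5.56, interval -7.79 to -3.34). Repeats covered more than 50% of the window at 7.80% of members and 4.94% of the others, and chromosome X held 19 members (2.00%) and 8 of the others (0.746%).

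Of 21938 protein-coding genes, 2.31% had a member within the gene or 10 kb of it, and 2.85% had one of the other OCT4 regions. Genes with a member were long, with a median of 132804 bp against 17425 bp over all genes, as were genes with one of the other OCT4 regions, with a median of 97344.5 bp, and 68 genes had regions of both kinds. Among the gene lists used here, a member was found at 1 of 35 pluripotency genes (2.86%), 2 of 30 epithelial genes (6.67%), 1 of 32 fibroblast and mesenchymal genes (3.13%), 1 of 36 genes of the TGF-β pathway (2.78%), 2 of 33 POU and SOX family genes (6.06%), and 0 of 35 chromatin regulator genes, for which 3 genes would be 8.57%. An OCT4 region with a SMAD3 peak was found at 5, 0, 2, 2, 5 and 5 genes of these lists, in the same order, which is 14.3% of the pluripotency and of the chromatin regulator genes and 15.2% of the POU and SOX family genes. The lists share genes: Tet2 counts as both a pluripotency and a chromatin regulator gene, and Pou5f1 as both a pluripotency and a POU family gene. These counts of 0 to 5 genes are a description, with no test.

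The members at listed genes had merged folds of 3.78 to 8.44, around the median of 6.13 over all members. At Tfcp2l1, a transcription factor gene of naive pluripotency, the member lay in an intron (chr1:118648115-118648294), held the composite, and had a fold of 6.42 with no peak in any OCT4 replicate list. At Fn1, which encodes the matrix protein fibronectin, it lay in an intron (chr1:71646034-71646259), again with the composite, a fold of 6.06, no replicate peak and a Dox+ SMAD3 signal of 7.79. At Ccn2, a matricellular gene that TGF-β induces, it lay 4631 bp outside the gene in an intron of Gm15270 (chr10:24590609-24590810) with a fold of 8.44, no replicate peak and a Dox+ SMAD3 signal of 5.95. The sequences around both summits, with the marked motifs in capitals as above, show the composite at Fn1 and a SOX core at Ccn2.
Fn1 chr1:71646095-71646195: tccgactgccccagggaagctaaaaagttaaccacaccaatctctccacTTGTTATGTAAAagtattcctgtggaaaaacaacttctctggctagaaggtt
Ccn2 chr10:24590680-24590780: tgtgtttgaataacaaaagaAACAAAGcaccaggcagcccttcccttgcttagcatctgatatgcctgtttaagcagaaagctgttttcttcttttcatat
At the epithelial genes Dsp (desmoplakin, of desmosomes) and Ocln (occludin, of tight junctions) the intronic members had folds of 4.04 and 4.48, with a peak in 1 and in no OCT4 replicate list. Their Dox+ SMAD3 signals of 8.26 and 9.74 were above the median of the members. Sox5 and Sox6, paralogous genes of the SOX family, each had 2 members in introns. Those at Sox5 (chr6:144724820-144725019 and chr6:144733304-144733626) were in OCT4 replicates 1 and 2, with merged folds of 6.71 and 8.38 and Dox+ SMAD3 signals of 1.44 and 4.22. Those at Sox6 had folds of 4.19 and 3.78, and signals of 1.04 and 1.40.

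At 6 genes 3 or more members lay within the gene or 10 kb of it. Elp4, which encodes a subunit of Elongator, had 4 within its introns, with merged folds of 5.27 to 6.48, of which none was in more than 1 OCT4 replicate list. Agbl4, a carboxypeptidase gene, had 3 with folds of 4.39 to 8.21, each in 1 replicate list. Auts2 had 3 with folds of 5.33 to 6.89, and Dlg2 had 3 with folds of 5.52 to 11.7 beside 3 OCT4 regions with a SMAD3 peak. Mgat4c, a glycosyltransferase gene, had 3 with folds of 8.87 to 11.9, of which 2 were in 2 replicate lists and held the POU palindrome motif. Tle1 had 3 with folds of 9.19, 3.85 and 7.24. Its members differed widely in Dox+ SMAD3 signal, at 4.13, -1.63 and 14.4. None of these genes except Dlg2 had an OCT4 region with a SMAD3 peak. Among all 507 genes with a member 68 had such a region, and over all 21938 protein-coding genes the share was 2.85% (626 genes). The 68 genes had a median length of 360902 bp, and the part of gene length in this overlap was not tested. Agbl4, Auts2, Dlg2 and Mgat4c span 709983 to 1972576 bp.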

How the data were processed

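ChIP-seq reads were processed by the authors: trimming with Trimmomatic 0.36, alignment to mm10 with Bowtie 2, removal of duplicates (Picard 2.3.0), of reads of low mapping quality and of blacklisted regions, and peak calling with MACS2 2.1.0 against pooled inputs. Whether the inputs of both dox states were pooled together is not given in the sources used here, so which input a fold refers to is not known. The narrow mode at q 0.01 was used for OCT4 and the broad mode at 0.1 for SMAD3, per replicate and on pooled replicates (the merged lists). The deposited lists give for each peak a fold (the ratio of ChIP to input) and a −log10 q-value. The deposited matrices hold a score, the coverage of pooled ChIP minus pooled input, each scaled by the authors to 1x, in 10 bp bins; read totals are not given in the sources used here. The authors' deposited tables of differential binding hold their own fold changes and p-values and were not used, nor were gapped peaks.

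Summit entries were collapsed to regions, each with its strongest summit, and overlap meant at least 1 bp. Genes came from GENCODE release M21 and sequence from GRCm38; all coordinates are 1-based. Motifs were searched on both strands. Shares have exact (Clopper-Pearson) 95% intervals and differences of shares Newcombe 95% intervals, for counting error only, with no test, since regions are not replicates. The OCT4 replicate lists were compared by an exact two-sided permutation test that flips the sign of each replicate's difference. The regions named were the 10 strongest members in at least 2 OCT4 lists, members at listed genes, extremes of SMAD3 signal, borderline regions, and genes with 3 or more members. The members and gene lists were chosen with earlier results of these data known. Overlaps, motif search, intervals and tests were tested on simulated data. Python 3.11.15, numpy 2.4.6, scipy 1.17.1, pandas 2.3.3, pysam 0.24.0 and matplotlib 3.10.9 were used.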

Additional observations from a re-analysis of the deposited data

How the results depend on the processing

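Leaving out each SMAD3 replicate list in turn, with the merged lists also left out, moved the share without a SMAD3 peak between 47.6 and 89.1%, the OCT4 signal difference between -2.57 and -1.31, the Dox+ SMAD3 signal of the members between 4.81 and 7.10, the promoter-proximal difference between -14.5 and -2.48 points and the KLF difference between -5.38 and -3.19. In each the extreme came from leaving out Dox+ replicate 2. With the merged lists alone the share was 75.02%, the SMAD3 signal 5.99 and the promoter-proximal difference -7.46. With SMAD3 peaks of −log10 q 2 or more the share was also 75.02%, the OCT4 difference -1.29 and the SMAD3 signal 6.68. Among OCT4 regions in at least 2 lists the share was 32.1%, the SMAD3 signal 5.19, the promoter-proximal difference -0.29, the KLF difference -0.0163 and the half-site difference 3.74. At or below and above the median OCT4 signal the SMAD3 signal was 4.31 and 5.36 and the half-site difference -7.14 and 4.43. At or below the median GC content the KLF difference was -0.0044 and the AP-1 difference -4.95, while above it the AP-1 difference reversed to 0.26 and the octamer difference was 3.57. Over 1000 bp the SMAD3 signal was 1.78, the median OCT4 difference was -1.87, the promoter-proximal difference within 5000 bp was -0.59, the KLF difference within 50 bp was -0.65, and the POU palindrome motif difference outside repeats was 3.22. The cause of these changes was not tested. Every one of the 19 alternatives kept the direction of the POU palindrome motif difference, with an interval that included 0 in 1 of them (OCT4 regions in at least 2 lists, 4.69). All 18 alternatives kept that of the KLF difference, but with an interval that included 0 in 5 of them. The KLF difference came to -0.0044 in windows of low GC content. The alternatives by OCT4 signal and GC content, those of the POU palindrome motif, and those without the regions that had a Dox- peak were chosen after seeing the data.

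The replicate numbers pair members and others within the same OCT4 list, and without this replicate block the exact permutation p was 0.5 for OCT4 support (difference -9.36) and 0.8 for the fold (0.01). OCT4 support ran from -11.8 to -7.57 points when single OCT4 replicates were left out. The log2 fold difference ran from -0.0083 to 0.0201 and reversed with OCT4 replicate peaks of −log10 q 5 or more (-0.0520), SMAD3 peaks of −log10 q 2 or more (-0.00603) and the merged lists alone (-0.00194).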
